A study of Sus scrofa with 54 samples.

Results

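The comparison described here sets isolator-reared piglets (IR) against indoor sow-reared piglets (IN) at 5 days of age, 6 ileum arrays each, 12 of the 54 arrays of the series. Its members were chosen by sample title alone: the day 5 titles naming the isolator with antibiotics, and the day 5 titles naming indoor rearing on the sow. IR piglets were born to indoor sows, moved at 24 h of age into single isolator units on another site, dosed with antibiotics every day and fed milk replacer. IN piglets stayed with an indoor sow and suckled, and no antibiotic is named for them. Outdoor piglets suckled by their sow (OUT, 6 arrays at day 5) serve as a second sow-reared group, and IR and IN piglets of days 28 and 56 as later ages. All groups were Large White × Landrace offspring of the same boar, and each indoor sow gave piglets to both IR and IN, but the labels do not name the litter. Isolator, antibiotics, milk replacer, site and loss of the sow came together in the IR group and cannot be told apart. The question is how the ileum of piglets born to indoor sows differed between the isolator and the sow in the first days of life.

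The ileum absorbs fat and bile acids and, in the newborn pig, takes up milk macromolecules by endocytosis. Enterocytes also make cholesterol. The genes of that pathway are transcribed under the SREBP factors, which INSIG proteins hold in the endoplasmic reticulum while membranes contain enough sterol. Metallothioneins bind zinc and copper, and interferon-induced genes encode proteins that limit virus replication.

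Values are log2 signals, so a difference of 1 is 2-fold. The 12 arrays were alike in level, with array medians between 4.04 and 4.21, and each correlated with its own group at a mean r of 0.971 to 0.980 in IR and 0.980 to 0.985 in IN over all probesets. One OUT array, replicate 3, stood apart at a mean r of 0.881. The enterocyte marker VIL1 was 8.51 on that array, against 11.56 to 11.78 on the other OUT arrays, and FABP2 was 7.66, against 12.47 to 13.40. That array adds to the spread used for every test and to the OUT means, but not to the IR minus IN difference. Epithelial and smooth muscle markers were bright in both IR and IN: VIL1 lay between 11.48 and 12.26 in IR and between 11.45 and 11.78 in IN, and ACTG2 between 13.71 and 14.19 in IR and between 13.53 and 13.93 in IN. FABP6, the bile acid binding protein of the distal small intestine, was low in 11 of the 12 piglets and reached 8.19 in IR replicate 2, against a highest IN value of 3.92. The fat, liver and pancreas markers ADIPOQ, ALB and CPA1 were at 2.77 or less in every IR and IN piglet.

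IR ileum had higher levels of nearly every measured gene of cholesterol synthesis, of the fatty acid enzymes SCD and FASN and of metallothioneins, and lower levels of TDH, FOLR2, TLR2 and the erythroid genes ALAS2 and AHSP. Calls follow the thresholds of the study's methods, a limma p below 0.01 before adjustment and a 2-fold or larger difference. Of 24057 probesets 88 were called (0.366%), 64 higher in IR (0.266%) and 24 lower (0.0998%). They represent 53 named genes, 37 higher and 16 lower, and 28 called probesets carry no symbol in the platform annotation. After Benjamini-Hochberg adjustment 3 probesets passed 0.05 in limma (0.0125%), and 1838 had an unadjusted p under 0.05 (7.64%). IR and IN values did not overlap in 38 of the 88 called probesets, 28 of them higher in IR and 10 lower. Among all 24057 probesets 198 had no overlap (0.823%), 137 with IR higher (0.569%) and 61 with IR lower (0.254%). The median log2 difference over all probesets was -0.01, and 47.6% lay above 0. The count of 88 was 57 without IR replicate 1, 51 without IR replicate 2 and 45 without both. It was 142 without IR replicate 3, 110 of them higher, and 128 without OUT replicate 3. The 24 calls lower in IR were 8 without IR replicate 2, 9 without IR replicate 1, 14 without IN replicate 2 and 43 without OUT replicate 3. They were 5 without both IR replicates 1 and 2, a fit in which TDH, FOLR2, TLR2, ALAS2 and AHSP all lost their calls. No probeset passed adjustment without IR replicate 1, 5 or 6 or IN replicate 2, 3, 5 or 6, where the number with an adjusted p below 0.05 was 0 in limma.

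Of the cholesterol synthesis list, 10 of 11 measured genes were called higher in IR and none lower. The median log2 difference was 1.94, against -0.01 over all probesets. Averaged over the 11 genes, the IR piglets lay between 7.94 and 9.94 (median 9.07) and the IN piglets between 6.23 and 7.52 (median 7.04), so the groups did not overlap. In all 11 genes IR replicates 1 and 2 were above the other 4 IR piglets, and in 10 of the 11 IR replicates 3 and 4 were below the other 4. Without IR replicates 1 and 2 the median was 1.46.

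The pathway starts with acetyl units. HMGCS1, which makes HMG-CoA, had a lowest, median and highest value of 8.55, 10.26 and 11.40 in IR, against 7.45, 8.06 and 8.84 in IN. IR replicate 4 was below the highest IN piglets, and the other 5 IR piglets lay above them all. The log2 difference was 1.94 ± 0.47 (SE, limma adjusted p = 0.277). ACAT2, annotated on the platform as the thiolase that joins the first acetyl units, was 7.90, 9.76 and 10.50 in IR and 5.75, 6.72 and 7.52 in IN. No IN piglet reached the lowest IR piglet, and the difference was 2.64 ± 0.58. A second ACAT2 probeset gave 3.39 ± 0.62. The study names both these probesets TCP1, a chaperonin subunit, and the probeset the platform assigns to TCP1 differed by 0.55 ± 0.29, which was not called.

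FDPS, the synthase of farnesyl diphosphate, was 10.59, 10.98 and 11.80 in IR, against 7.76, 9.01 and 9.41 in IN. Every IR piglet was above every IN piglet by more than 1 log2 unit. The difference was 2.24 ± 0.38, a 4.71-fold higher signal (limma adjusted p = 0.0904). FDFT1, squalene synthase, was 8.51, 10.04 and 10.82 in IR and 6.46, 7.49 and 8.34 in IN, with no overlap and a difference of 2.33 ± 0.55. SQLE, which oxidises squalene and limits the later part of the pathway, was 6.21, 8.49 and 9.92 in IR, against 2.88, 5.00 and 6.57 in IN. IR replicate 3 was below IN replicate 4, the other piglets kept the groups apart, and the difference of 3.47 ± 0.98 corresponds to 11.1-fold (limma adjusted p = 0.424).

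The enzymes that turn lanosterol into cholesterol were higher as well. CYP51, the lanosterol demethylase, was 10.91, 11.48 and 12.01 in IR, against 9.17, 9.75 and 10.34 in IN, a difference of 1.73 ± 0.36 without overlap. The 3 enzymes that remove the methyl groups at carbon 4 differed by 2.1 ± 0.53 (MSMO1), 1.48 ± 0.35 (NSDHL) and 1.54 ± 0.43 (HSD17B7). SC5D, a late desaturase, differed by 1.59 ± 0.37. TM7SF2, a sterol reductase, was dim at 3.33 to 4.73 in IR and 2.74 to 3.16 in IN, and its difference of 0.96 ± 0.23 was under the 2-fold limit. Of the called genes of this list MSMO1, HSD17B7 and SQLE were no longer called when IR replicates 1 and 2 were both left out (1.63, 1.07 and 2.67).

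Further probesets of the pathway have no platform symbol and are named here as in the study, whose lists were chosen on these same IR arrays, and all were picked here after their values were seen. The probeset listed as EBP, a sterol isomerase, was 8.5, 9.72 and 10.08 in IR, against 5.19, 6.00 and 6.74 in IN. All IR piglets lay above all IN piglets, and the difference of 3.5 ± 0.49 (11.3-fold) passed adjustment in limma (adjusted p = 0.0203). Those listed as DHCR7, the last reductase, and IDI1, an isomerase of isoprenoid units, differed by 2.59 ± 0.51 and 2.13 ± 0.42 without overlap. The one listed as MVD, a decarboxylase that makes isoprenoid units, differed by 1.75 ± 0.43, with overlap of the groups.

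**Figure D1:**
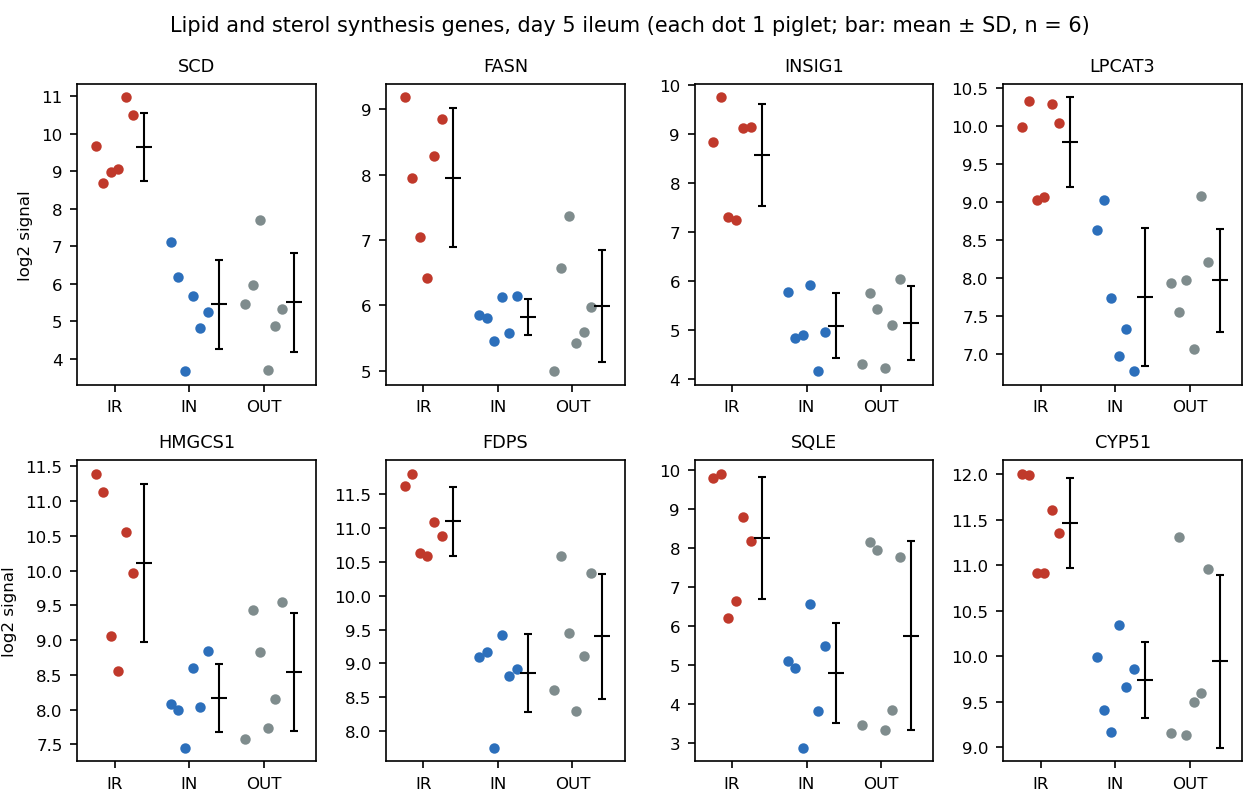
Log2 signal of 8 lipid and sterol genes in the ileum at day 5, with 1 dot per piglet for IR, IN and OUT and a bar for the mean ± SD of 6 piglets. SCD, FASN, INSIG1, LPCAT3, FDPS and CYP51 show no overlap between IR and IN, and the SCD dots of IR start at 8.69 while those of IN end at 7.11.

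Fatty acid synthesis showed a narrower change. Of 12 measured genes 2 were called higher, SCD and FASN, and none lower, while 10 of 12 differences were above 0 with a median of 0.52. SCD, stearoyl-CoA desaturase, was 8.69, 9.36 and 10.98 in IR, against 3.67, 5.46 and 7.11 in IN. Every IR piglet was above every IN piglet by more than 1 log2 unit. The difference was 4.2 ± 0.62, or 18.4-fold (limma adjusted p = 0.0241, two-sided exact permutation p = 0.00216, the smallest that 6 against 6 piglets can give). FASN, which builds palmitate, has 4 probesets, of which 1 was called. That probeset was 6.42, 8.12 and 9.19 in IR, against 5.46, 5.84 and 6.14 in IN. The IN piglets were close together and the IR piglets spread over nearly 3 log2 units, and the difference was 2.13 ± 0.44 (limma adjusted p = 0.146). ELOVL6, which lengthens palmitate and was picked after its values were seen, was 4.18, 8.89 and 9.39 in IR and 4.0, 6.15 and 7.34 in IN. IR replicate 4 was at the level of the lowest IN piglets, and the difference of 2.17 ± 0.84 was not called. It was called without that piglet, at 2.92. GPAM and FADS1, a glycerolipid acyltransferase and a fatty acid desaturase, differed by 0.41 and 0.74 and were not called.

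LPCAT3, which places unsaturated fatty acids into membrane phospholipids and was picked after its values were seen, was 9.03, 10.01 and 10.32 in IR, against 6.78, 7.54 and 9.03 in IN. The lowest IR piglet stood just above the highest IN piglet. The difference was 2.04 ± 0.40, or 4.1-fold, and a second probeset gave 1.43.

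Among 12 genes of sterol sensing and uptake 1 was called, INSIG1, and the median of the list was 0.10. INSIG1 was 7.24, 8.97 and 9.74 in IR, against 4.16, 4.93 and 5.92 in IN by the probeset with the larger difference. All IR piglets were above all IN piglets. This probeset had the lowest p of the whole comparison, with a difference of 3.47 ± 0.45 (11.1-fold, limma adjusted p = 0.0133), and a brighter INSIG1 probeset differed by 1.75 ± 0.35. SREBF2, the factor that drives sterol synthesis genes, differed by 0.71 ± 0.24 and was under the fold limit, and SREBF1 by 0.65 ± 0.37. MYLIP, a ubiquitin ligase, was 5.31, 8.27 and 9.27 in IR and 8.35, 9.25 and 9.85 in IN, and its difference of -1.40 ± 0.56 was not called.

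Of 15 chylomicron and apolipoprotein genes 1 was called, APOA2, an apolipoprotein of high-density lipoprotein. It was 9.45, 11.04 and 11.81 in IR, against 2.76, 6.77 and 10.26 in IN. The IR piglets were uniformly bright, and the IN piglets ranged over more than 7 log2 units, with replicates 2 and 4 within the IR range or close to it. The difference of 3.99 ± 1.25 (15.9-fold, limma adjusted p = 0.498) was called with all arrays and lost its call without IR replicate 3, 5 or 6 or IN replicate 3, 5 or 6, where single arrays left out gave 3.18 to 4.68. The list median was 0.12.

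**Figure D2:**
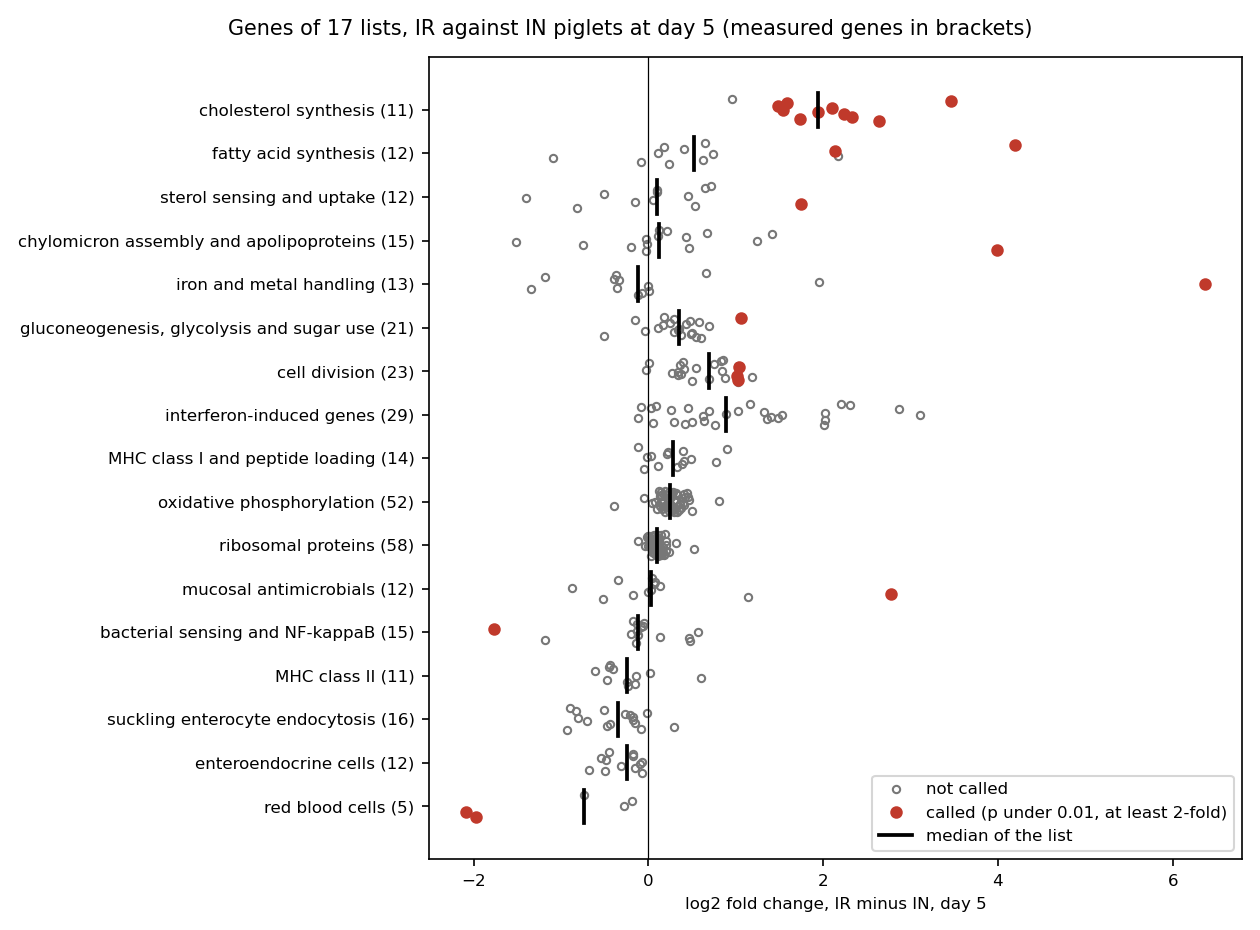
Log2 difference IR minus IN at day 5 for the genes of 17 lists, with 1 point per measured gene, filled points for called genes and a vertical line for the list median. The cholesterol synthesis list has its median at 1.94 with 10 of 11 genes called, while the interferon list has a median of 0.89 with none called.

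A metallothionein had the largest difference of the 24057 probesets. MT1A was 6.41, 11.38 and 14.04 in IR, against 3.47, 4.55 and 5.73 in IN. IR replicates 3, 4 and 6 were close to 14, the other 3 IR piglets lay between 6.41 and 8.96, and every IN piglet was lower still. The difference was 6.37 ± 1.24 (82.7-fold, limma adjusted p = 0.133) and ranged from 5.76 to 7.28 with single arrays left out. MT-2B was 6.84, 10.11 and 12.62 in IR and 4.76, 6.28 and 7.35 in IN, again with replicates 3, 4 and 6 high. The difference was 3.72 ± 1.17, and the call was lost without IR replicate 3, 4 or 6 or IN replicate 4 or 5, at 3.17 to 4.32 over all single arrays left out. MT3 was 8.90 and 9.62 in IR replicates 3 and 4 and at most 4.55 in the other IR piglets, against 3.29 to 4.12 in IN, and was not called (1.95 ± 0.90).

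A probeset that the platform annotates as EF1ALPHA, a translation factor, and the study lists as the metallothionein MT1J differed by 4.87 ± 0.99, with IR replicates 3, 4 and 6 between 13.58 and 13.72. The 8 other EF1ALPHA probesets differed by -0.25 to 0.60. Of the 13 genes of iron and metal handling only MT1A was called, and the list median was -0.12. HMOX1, which breaks down heme, was 5.98, 8.43 and 8.99 in IR and 8.24, 9.28 and 9.93 in IN, at -1.34 ± 0.53 and not called.

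**Figure D3:**
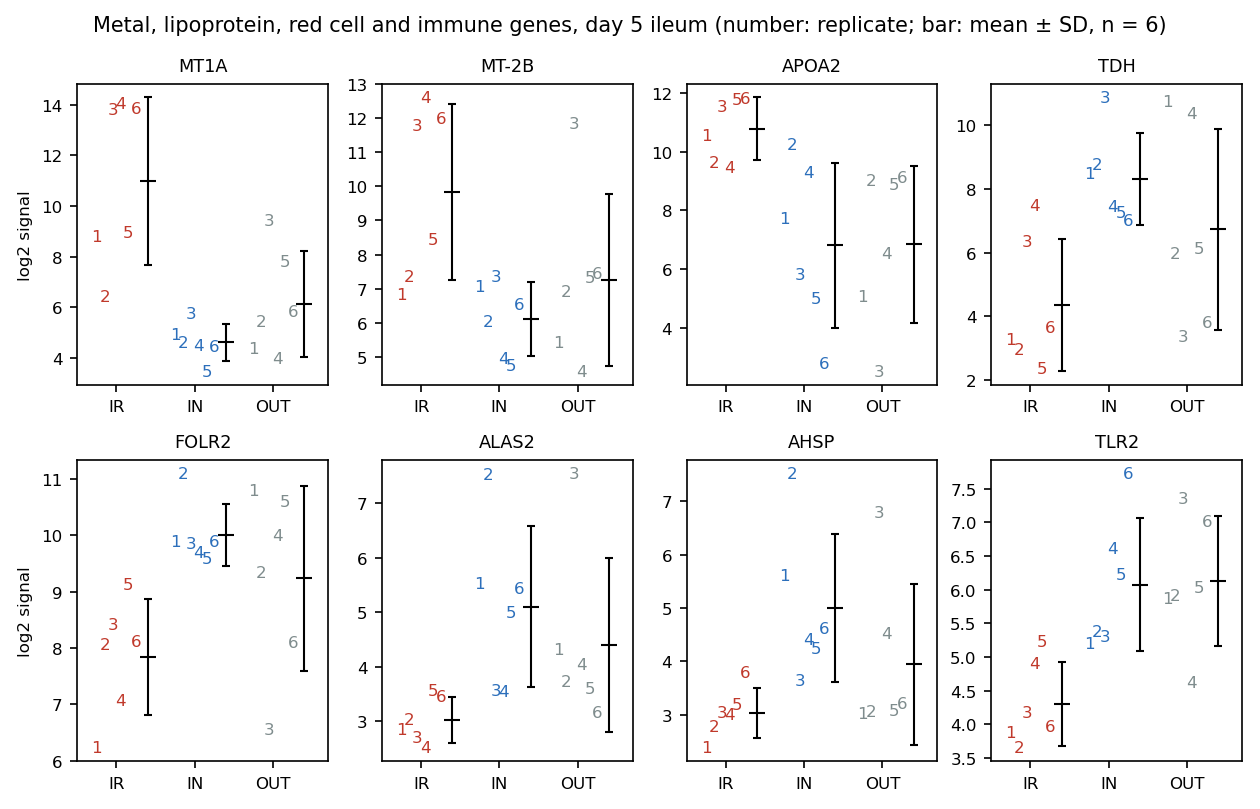
Log2 signal of 8 genes of other functions at day 5 in IR, IN and OUT ileum, with each piglet shown by its replicate number and a bar for the mean ± SD of 6 piglets. MT1A lies near 14 in IR replicates 3, 4 and 6, and FOLR2 is lower in all 6 IR piglets, up to 9.12, than in all 6 IN piglets, from 9.59.

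Interferon-induced genes were high in 2 IR piglets. None of 29 measured genes was called without a block, 27 lay above 0 and 7 had an unadjusted p under 0.05, with a list median of 0.89. Averaged over the list, IR replicates 1 and 2 were at 9.92 and 9.97 and the other 4 IR piglets between 6.88 and 7.54, against 6.62 to 7.75 in IN. Replicates 1 and 2 were also the highest of IN, at 7.56 and 7.75, with the other 4 between 6.62 and 6.82. In OUT they were at 6.23 and 7.01, below the highest at 7.19. No label says whether equal numbers share a run. IR replicates 1 and 2 were both above the other 4 IR piglets in 22 of the 29 genes. RSAD2, which encodes the antiviral protein viperin, was 6.42, 7.83 and 12.72 in IR, against 4.05, 5.73 and 9.08 in IN, a difference of 2.87 ± 1.21 that was not called. ISG15, a ubiquitin-like modifier, was 13.07 and 13.33 in IR replicates 1 and 2 and 4.90 to 9.03 in the other IR piglets, against 4.24 to 7.89 in IN. USP18, which removes ISG15 from proteins, differed by 2.3 ± 0.80 (limma adjusted p = 0.532). It was called without IR replicate 3, 4 or 6, IN replicate 1 or OUT replicate 3, at 2.30 to 2.77, and with dim probesets left out. ISG15 was called without IR replicate 4, and ISG12(A) without IR replicate 4 or IN replicate 1. DDX58, a sensor of viral RNA, and ISG12(A) differed by 2.0 ± 0.82 and 1.53 ± 0.58. The list median was 0.62 without IR replicate 1, 0.49 without IR replicate 2 and 0.07 without both, an alternative added after the data were seen. The peptide loading and MHC class I list, with 14 genes and none called, had a median of 0.28, and of 0.04 without these 2 piglets.

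**Figure D4:**
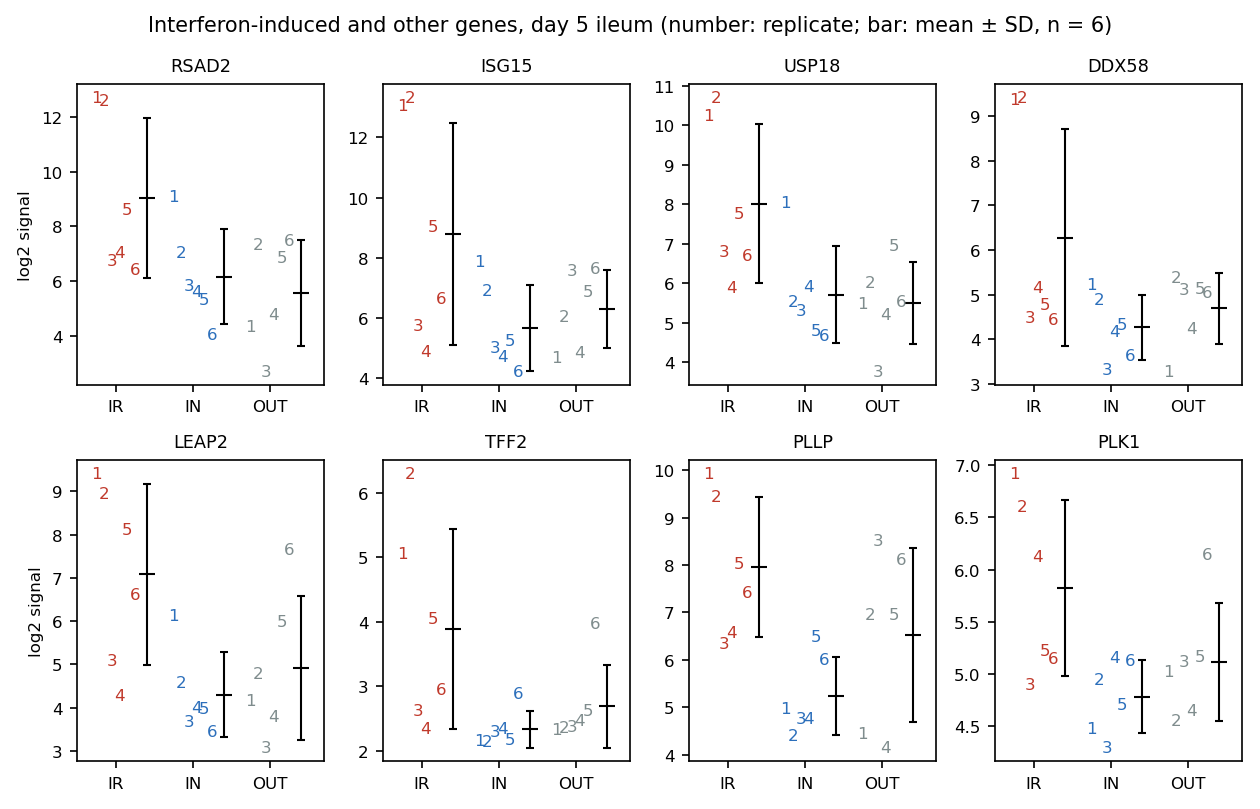
Log2 signal of RSAD2, ISG15, USP18, DDX58, LEAP2, TFF2, PLLP and PLK1 at day 5 in IR, IN and OUT ileum, with each piglet shown by its replicate number and a bar for the mean ± SD of 6 piglets. IR replicates 1 and 2 are the highest IR piglets in all 8 panels, with RSAD2 at 12.72 and 12.61.

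The same 2 piglets led other genes that were called. LEAP2, a peptide with antimicrobial activity, was 4.28, 7.37 and 9.41 in IR and 3.44, 3.99 and 6.13 in IN. IR replicates 3 and 4 lay within the IN range. Its difference of 2.78 ± 0.89 was the only call among 12 mucosal antimicrobials, whose median was 0.03, and was lost without IR replicate 1, 2 or 5 or IN replicate 3, 4, 5 or 6 (2.31 to 3.34 with single arrays left out). TFF2, a trefoil peptide of mucus, was 2.35, 3.5 and 6.30 in IR and 2.15, 2.23 and 2.89 in IN, the only call of 8 goblet genes at 1.56 ± 0.53. It was lost in 12 of the 18 fits without a single array, those without IR replicate 1, 2 or 5, IN replicate 1, 2, 3, 4 or 5 or OUT replicate 1, 2, 4 or 5, and ranged from 1.07 to 1.86. PLLP, a membrane protein of the apical endosome in epithelia, was 6.34, 7.73 and 9.93 in IR and 4.40, 4.87 and 6.49 in IN, a difference of 2.73 ± 0.78. GSTO1, a glutathione transferase, was 9.99, 10.44 and 12.45 in IR, against 8.27, 8.90 and 9.40 in IN, with no overlap and a difference of 2.01 ± 0.53, the 1 call of 27 drug metabolism genes. PLLP and GSTO1 kept their calls with any single array left out and lost them without both piglets (1.86 and 1.39). The probeset listed by the study as CCL28, a chemokine that draws IgA-secreting cells to mucosa, was picked after its values were seen. It was 4.21, 5.97 and 7.03 in IR, against 3.04, 3.60 and 4.06 in IN, without overlap (2.17 ± 0.51). The dimmer probeset that the platform itself assigns to CCL28 averaged 2.83 in IR and 3.09 in IN, a difference of -0.26 ± 0.26 that was not called.

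Cell division genes lay above 0 in 22 of 23 cases with a median of 0.69, and 3 were called higher, BIRC5, PLK1 and CDC20, all of which act in mitosis. BIRC5 was 6.77, 7.88 and 8.28 in IR and 6.17, 6.68 and 7.05 in IN. PLK1 was 4.90, 5.68 and 6.92 in IR, against 4.29, 4.82 and 5.16 in IN. The groups overlapped in each, and the differences of 1.02 ± 0.33, 1.04 ± 0.34 and 1.02 ± 0.35 stood at the fold limit. The calls were lost in 7, 6 and 13 of the 18 fits with a single array left out, which gave 0.71 to 1.22. All 3 were lost without IR replicate 1, 2 or 4 or IN replicate 3 or 5. BIRC5 also lost its call without IR replicate 5 or IN replicate 2, PLK1 without IN replicate 1, and CDC20 without IR replicate 3, IN replicate 1, 2 or 6 or OUT replicate 2, 4, 5 or 6, and the list median without IR replicates 1 and 2 was 0.32. Both those piglets exceeded the other 4 IR piglets in 17 of the 23 genes. The RNA is from whole tissue, so a change in the number of dividing or other cells and a change in RNA per cell cannot be told apart.

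Energy metabolism moved little per gene. TKT, a transketolase of the pentose phosphate pathway, was 10.19, 10.39 and 11.16 in IR, against 8.99, 9.46 and 9.98 in IN, without overlap. It was the 1 call of 21 genes of sugar use, at 1.07 ± 0.22, its call was lost without IR replicate 1 or IN replicate 5 (0.94 and 0.97), and the list had 18 genes above 0 with a median of 0.35. GAPDH, PGD and ENO1, enzymes of glycolysis and of the pentose phosphate pathway, differed by 0.50, 0.58 and 0.54. Of 52 genes of oxidative phosphorylation none was called and 50 were above 0, with a median of 0.25, and of 58 ribosomal protein genes none was called and 53 were above 0, with a median of 0.10. Both lists kept their sign under quantile normalization and median centring, and centring gave a median of -0.04 over all probesets. Mitochondrial ribosomal protein MRPL32, elongation factor TUFM and the inner membrane protein LETM1, chosen after their values were seen, differed by 1.10 ± 0.21, 1.08 ± 0.29 and 1.24 ± 0.33. MRPL32 was not called without IR replicate 1 or 2 (0.98 at its weakest), and TUFM not without either of these or IN replicate 5 or 6 (0.94 at its weakest).

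TDH, threonine dehydrogenase, had the largest negative difference of the 24057 probesets. It was 2.36, 3.47 and 7.48 in IR, against 7.0, 7.95 and 10.87 in IN. IR replicates 3 and 4 were at 6.36 and 7.48, and the other 4 IR piglets were below 4. The difference was -3.95 ± 1.26, a 15.5-fold lower signal (limma adjusted p = 0.498). The call was lost without IR replicate 1, 2, 5 or 6 or IN replicate 1, 2 or 3, at -4.58 to -3.44 over the single arrays left out. OUT piglets spread from 3.38 to 10.74.

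Of 5 measured genes of red blood cells 2 were called lower in IR and none lay above 0, with a median of -0.74. The list means of the piglets overlapped, at 3.78 to 4.31 in IR and 4.29 to 6.33 in IN. ALAS2, which makes heme in erythroid cells, was 2.51, 2.93 and 3.57 in IR, against 3.55, 5.21 and 7.53 in IN, and AHSP, the chaperone of alpha globin, was 2.38, 3.03 and 3.79 in IR and 3.64, 4.52 and 7.52 in IN. In both genes every IR piglet was at 3.79 or less and IN replicate 2 was highest. The differences were -2.09 ± 0.69 and -1.97 ± 0.65, and without IN replicate 2 they were -1.60 and -1.47 and not called. Each call was lost in 8 of the 18 fits with a single array left out, both without IR replicate 1, 2, 3 or 4 or IN replicate 1, 2 or 6, ALAS2 also without IN replicate 5 and AHSP also without IR replicate 5. The bright probeset annotated as B2M on the platform and listed as the globin HBA1 by the study was 10.25, 10.84 and 12.06 in IR, against 12.26, 12.97 and 13.74 in IN. Its groups did not overlap, with a difference of -1.95 ± 0.35 (limma adjusted p = 0.114). The 8 other B2M probesets differed by -0.26 to 1.04. The probeset annotated as OAZ1 and listed by the study as the globin HBB was also lower in every IR piglet, at 10.75, 11.31 and 12.44 in IR and 12.48, 13.28 and 13.69 in IN, a difference of -1.62 ± 0.31, while the other OAZ1 probeset differed by 0.15. The probeset that the platform assigns to HBB differed by -0.28 ± 0.22 and was not called. Globins, ALAS2 and AHSP mark blood in the tissue, and how much blood each sample held was not measured.

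FOLR2, a folate receptor of tissue macrophages, was 6.23, 8.09 and 9.12 in IR, against 9.59, 9.86 and 11.09 in IN. The groups did not overlap, and the difference was -2.16 ± 0.63 (4.47-fold lower, limma adjusted p = 0.434). None of 18 macrophage and dendritic cell genes on the list was called, and the list median was 0.02. TLR2, the receptor of bacterial lipoproteins, was 3.65, 4.08 and 5.23 in IR, against 5.20, 5.80 and 7.72 in IN. Only IR replicate 5 reached the lowest IN piglet, and the difference was -1.77 ± 0.47 (3.41-fold lower, limma adjusted p = 0.349), the 1 call of 15 genes of bacterial sensing. The calls of FOLR2 and TLR2 held with any single array left out, and both were lost without IR replicates 1 and 2 together. LBP, which presents lipopolysaccharide, was 9.31, 9.56 and 10.42 in IR and 9.94, 10.87 and 12.11 in IN, at -1.18 ± 0.47 and not called, though it was called without OUT replicate 3.

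RARRES1, a retinoic acid-responsive gene, was 7.81, 9.36 and 10.27 in IR, against 10.64, 11.21 and 11.45 in IN, without overlap. It was the 1 call of 8 genes of retinoid metabolism, of which 4 lay above 0 and 4 below, with a list median of -0.01. Its difference was -1.74 ± 0.54, a second probeset gave -1.63, and the call of the first was lost without IR replicate 2 or 6 or IN replicate 1, 2 or 3 (-1.93 to -1.43 with single arrays left out). A probeset annotated as RPS27A and listed by the study as the zinc transporter SLC39A10 was 5.57, 6.88 and 7.15 in IR, against 7.69, 7.88 and 8.57 in IN, also without overlap. The difference of -1.38 ± 0.25 had the lowest p of all probesets lower in IR (limma adjusted p = 0.114), and the other RPS27A probeset differed by -0.01.

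EIF4EBP2, a repressor of translation initiation, and MPDZ, a junction scaffold protein, differed by -1.23 ± 0.37 and -1.15 ± 0.29, each with 2 called probesets. KIAA1551 differed by -1.23. The EIF4EBP2 call was lost without IR replicate 1 or 2 (-0.95 at its weakest) and the MPDZ call without IN replicate 2 (-0.87). Of genes picked after their values were seen, AGTR1, the type 1 angiotensin II receptor, was 3.78, 4.40 and 5.75 in IR and 4.60, 5.52 and 6.55 in IN (-1.02 ± 0.32, lost without IR replicate 2, 5 or 6 or IN replicate 1, 5 or 6, at -1.27 to -0.82), and MBP, CA12 and PSEN2 differed by -1.03, -1.02 and -1.05. Their calls were lost in 3, 6 and 8 of the 18 fits with a single array left out. MBP lost its call without IR replicate 1 or 2 or IN replicate 2, CA12 without IR replicate 1 or 6 or IN replicate 1, 2, 3 or 5, and PSEN2 without IR replicate 1, 2, 3 or 6, IN replicate 2, 5 or 6 or OUT replicate 5.

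Lists that mark cell types gave few calls. None of 16 genes of suckling enterocyte endocytosis was called, 15 lay below 0 and the median was -0.35. PSAP and CTSB, lysosomal proteins, had the lowest p of that list at -0.90 and -0.47. All 12 enteroendocrine genes lay below 0 with a median of -0.24 and no call, among them SST, somatostatin, at -0.45, and SCG2 at -0.54. The medians were -0.10 for 16 T and NK cell genes, -0.06 for 7 B and plasma cell genes, -0.25 for 11 MHC class II genes, 0.04 for 17 smooth muscle genes, -0.02 for 23 fibroblast genes, 0.04 for 14 brush border genes and 0.07 for 14 epithelial genes, with no call in any of them. The T and NK cell genes were dim, with a list mean of 3.07 in IR and 3.24 in IN. In the B and plasma cell list CD79B (2.55 and 2.66), PIGR (2.62 and 2.68) and TNFRSF17 (2.78 and 2.82) were dim too, while BLNK and XBP1 were above 10. Small medians of genes this dim do not show that lymphocyte content was alike. XPNPEP2, a brush border peptidase, differed by -2.24 and was not called.

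OUT piglets were used to place the IN level, through comparisons that share the IR or the IN arrays. In IN against OUT 12 probesets were called (0.0499%), and in IR against OUT 81 (0.337%). These comparisons include OUT replicate 3, the array low in enterocyte markers. Its mean over the chylomicron and apolipoprotein list was 5.24, against 10.79 to 11.40 in the other OUT piglets. How far it moves the differences from OUT, above all those of enterocyte genes, was not tested. SCD, INSIG1 and APOA2 differed by -0.06, -0.05 and -0.04 in IN minus OUT, with 4.14, 3.42 and 3.95 in IR minus OUT. In IN minus OUT, FDPS differed by -0.54, SQLE by -0.96 and EBP by -0.66, none called, and in IR minus OUT by 1.70, 2.51 and 2.84. OUT replicates 2 and 6 had list means for cholesterol synthesis of 8.53 and 8.41, within the IR range, and the other OUT piglets lay between 6.54 and 7.49. TLR2 differed by -0.06 in IN minus OUT and RARRES1 by 1.38, neither called.

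At later ages part of the lipid genes were called again. With each day fitted apart, 119 of 24057 probesets were called IR against IN at day 28 and 69 of 24057 at day 56. In the fit over all 9 groups these numbers were 187 (0.777%) and 53 (0.22%). In the separate fits, 24 of 24057 probesets were called at both days 5 and 28, all in the same direction. This is 27.3% of the day 5 calls and 20.2% of the day 28 calls. They were 23 higher and 1 lower, AGTR1, and the higher ones include 8 of the 10 called genes of the cholesterol synthesis list, without ACAT2 and NSDHL. With day 28 taken from the fit over all 9 groups the shared number was 31. Both days 5 and 56 called 2 probesets. The different piglets of day 28 gave 3.67 ± 0.76 for SCD, 3.44 ± 0.73 for INSIG1, 3.34 ± 0.92 for SQLE and 2.20 ± 0.48 for FASN, in the fit over all 9 groups. At day 56, after weaning at day 28, these were 1.55 ± 0.76, 0.01 ± 0.73, -0.81 ± 0.92 and 0.22 ± 0.48. For the cholesterol synthesis list the median difference was 1.59 on day 28 and -0.43 on day 56, beside 1.94 on day 5.

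The difference between days was tested itself. The contrast of day 5 less day 28 passed adjustment for no probeset in limma (0.0%). An unadjusted p under 0.05 was found for 1246 of 24057, about the share that chance alone gives at that threshold. For day 5 less day 56 the number at an unadjusted p under 0.05 was 2002 of 24057, and 2 passed adjustment. These were CPT1A, the gate of fatty acid oxidation in mitochondria, at 0.73 ± 0.35 on day 5 and -2.12 ± 0.37 on day 56, and PLIN2, which coats lipid droplets, at 0.75 ± 0.41 and -2.48 ± 0.40. For each the limma adjusted p of the difference was 0.0161. The SE at day 5 come from the fit of the day 5 arrays. Those of later days, and the tests between days, come from the fit over all 9 groups. PDK4, which diverts pyruvate from oxidation, was 4.63, 5.66 and 7.02 in IR, against 5.39, 6.87 and 7.78 in IN at day 5, at -1.02 ± 0.55 and not called. It differed by -4.33 ± 0.55 at day 28 and -2.39 ± 0.55 at day 56, and its day 5 less day 28 contrast had an adjusted p of 0.47 in limma. ALAS2, AHSP and RARRES1 differed by -0.31 ± 0.60, -0.69 ± 0.48 and -0.18 ± 0.45 at day 28, while AGTR1 was at -1.37 ± 0.36 at day 28 and -1.34 ± 0.36 at day 56. MT1A differed by 2.31 ± 1.41 at day 28 and 2.76 ± 1.41 at day 56.

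**Figure D5:**
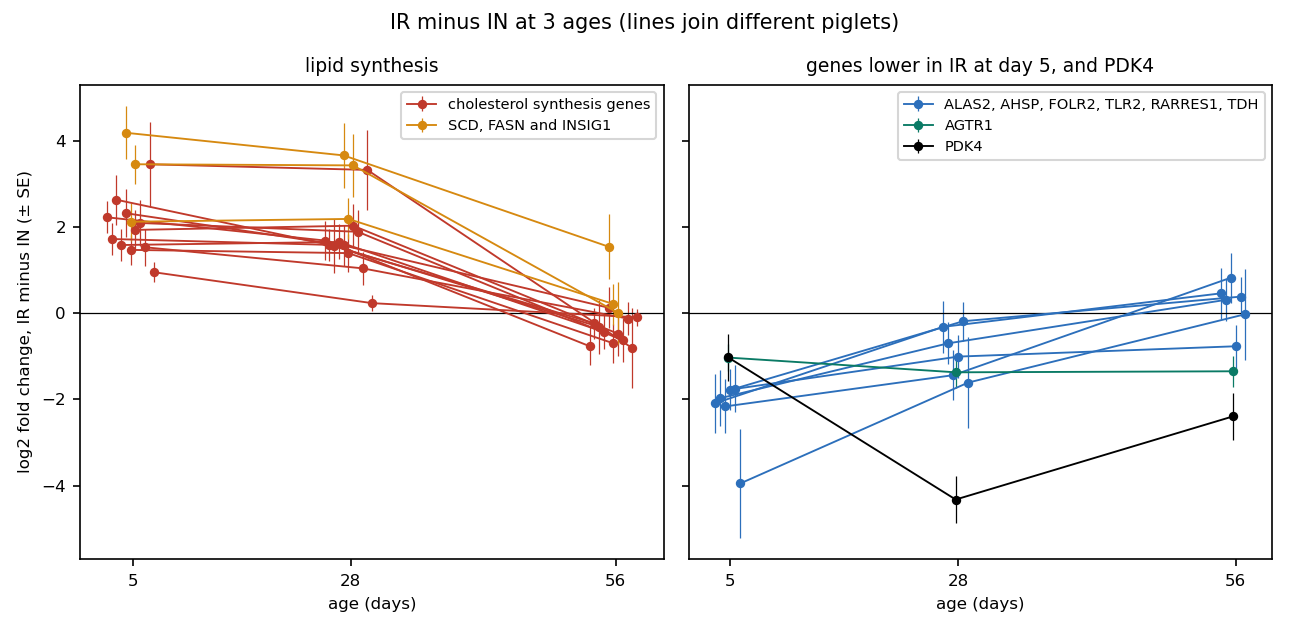
Log2 difference IR minus IN (± SE) at ages of 5, 28 and 56 days for lipid synthesis genes on the left and for genes lower in IR at day 5 and PDK4 on the right, with lines that join different piglets. SCD, FASN and INSIG1 stay above 2 at days 5 and 28, and INSIG1 is at 0.01 at day 56. The SE come from the fit of the day 5 arrays at day 5 and from the fit over all 9 groups at days 28 and 56.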

How the data were processed

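Ileal RNA (8 µg, taken at 75% of small intestinal length) was hybridised to Affymetrix GeneChip Porcine Genome arrays, scanned with GCOS 1.2 per the submitters' processing notes. The authors applied gcRMA and deposited the result as log2 signal per probeset, which was used unchanged. A genome build is not given in the sources used here. Of 24123 probesets 66 control probesets were left out. The platform annotation gives 1 symbol to 10099 of the 24057 tested and several to 198, and gene names come from it unless credited to the study's lists.

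The 18 day 5 arrays (IR, IN, OUT) were fitted together with limma 3.58.1 in R 4.3.3, contrast IR minus IN, with no block, as no label names the run. Both an unadjusted p under 0.01 and a fold of at least 2 were needed for a call. Day contrasts used all 54 arrays in 9 groups. Single genes were also tested by two-sided exact permutation over 924 splits. Lists used the brightest probeset per gene. Figures were drawn with matplotlib 3.10.9.

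Members, lists and tests were chosen with earlier results of these data known. Named are the 12 genes with the largest rise and the 12 with the largest fall among the called, up to 4 genes per list with the smallest p, and called genes of the sterol, fatty acid and interferon lists. Any other named gene was picked after its values were seen. Piglets are separate animals. Their small number, sows shared between piglets and runs that no label gives limit the precision. Alternatives were replicate blocks, fewer or more groups, a filter on dim probesets, quantile normalization, median centring, array weights, adjusted p, the moderated F-test, a trended robust fit and leaving out each array. A search for promoter motifs was not run, since no promoter sequence was given. Some probesets of the sterol genes are not reported here.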

Additional observations from a re-analysis of the deposited data

Results flagged for a closer look

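In 158 tests of a single piglet far from its group (73 probesets and 6 list means, in IR and in IN), 8 were flagged, and chance alone flags about 1 in 20. The gap of the named piglet to the nearest other was large against the range of its group. In IR, HBM was 2.51 in replicate 2, against 3.10 to 3.27 in the others, and the mean of the red blood cell list was 4.31 in replicate 6, against 3.78 to 3.96. In IN, FOLR2 was 11.09 and HBM 5.54 in replicate 2, with the next piglets at 9.89 and 3.87. USP18 was 8.04 in IN replicate 1, with the next at 5.92. FDPS was 7.76 in IN replicate 3, with the next at 8.81. In IN replicate 6, TFF2 was 2.89, with the next at 2.34, and MRPS11 was 5.29, with the next at 6.46.

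The IR minus IN difference itself differed between ages, by the test of day 5 less day 56, for PLIN2 (by 3.22) and CPT1A (by 2.86).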

How the results depend on the processing

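For 73 probesets of named genes no alternative reversed a direction. These genes were named largely for a large difference or a small p in the same arrays, so their kept directions are no independent support. Of the values under alternatives 1859 stayed on their side of the call, 214 lost it and 40 gained it. The count of 88 calls became 3 by adjusted p, 184 with IR and IN arrays only and a replicate block by number in twos (117 higher, 67 lower), and 45 without IR replicates 1 and 2 (40 higher, 5 lower), an alternative chosen after seeing the data. Calls lower in IR were 39 with IR and IN arrays only, 42 with all 9 groups and 14 with the moderated F-test. With 1 array left out, calls ranged from 51 to 142, higher calls from 43 to 110, lower calls from 8 to 43 and adjusted p under 0.05 from 0 to 5. The 3 probesets with adjusted p under 0.05 became 0 with a replicate block by label number, 7 with the block in twos, 11 with IR and IN only, 47 with IR and IN only and the block in twos, 26 with all 9 groups and 1 without IR replicates 1 and 2. The cause of these shifts was not tested. Same-numbered IR and IN piglets deviated with correlations of -0.01 to 0.31, over 0.1 in 3 of 6 pairs, and 3 of 6 IR piglets matched their own number best, so not every pair was alike and the numbers were not taken as pairs. Numbers in twos correlated at 0.38, 0.30 and 0.01 within IR and at -0.11 to 0.04 within IN. The replicate block by label number gave 82 calls. Either block ended the calls of CDC20, ALAS2, AHSP and PSEN2, and the block by label number also those of APOA2, TFF2, BIRC5 and PLK1. Either block made USP18 and ISG12(A) called, the block in twos also RSAD2, and with IR and IN only also ISG15 and DDX58. The day 5 less day 28 contrast had 0 adjusted calls under its alternatives too. An unadjusted p under 0.05 was found for 767 of 14189 probesets with dim ones left out. In the other alternatives it was found for 1162 and 1323 of 24057. Keeping only probesets that reached 4 on at least 6 of the 18 arrays left 12864 probesets and 84 calls.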
